A study of Mus musculus with 6 samples.

Results

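The genes described here encode the enzymes, sugar and lactate transporters and regulatory kinases of glycolysis, the pentose phosphate pathway and the route from pyruvate through the tricarboxylic acid (TCA) cycle. They come from a list of gene symbols drawn up with earlier results of these data known, and all 55 were found among the 41255 genes listed, with 22 in glycolysis, 7 in the pentose phosphate pathway and 26 in pyruvate oxidation and the TCA cycle. Levels of mRNA were measured in 6 Ba/F3 cultures. Ba/F3 is a lymphoid cell line of the mouse whose growth requires interleukin-3. In the 3 WT cultures (clones 28, 29 and 36) the cells expressed wild-type human RPL10, a protein of the large ribosomal subunit, and in the 3 R98S cultures (clones 11, 13 and 35) they expressed the leukemia-associated R98S mutant. All 6 cultures were grown from single transduced cells, carried a short hairpin RNA against the mouse Rpl10 gene, and received 100 µg/ml of cycloheximide for 5 min before lysis. Each clone contributed 1 library, so the p-values below measure the spread between clones, which includes differences between single-cell clones.

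Glycolysis splits glucose in the cytosol into pyruvate, with a net gain of ATP and NADH. Its first steps consume ATP and its later steps repay it. Lactate dehydrogenase regenerates NAD+ by turning pyruvate into lactate, which leaves the cell through monocarboxylate transporters. The pentose phosphate pathway branches off at glucose 6-phosphate and makes NADPH and ribose 5-phosphate for nucleotide synthesis. The pyruvate dehydrogenase complex feeds acetyl-CoA into the TCA cycle in mitochondria, and pyruvate dehydrogenase kinases switch that complex off. Proliferating lymphoid cells are known for high glycolytic flux even when oxygen is plentiful.

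The libraries held between 21786776 and 24204991 reads assigned to genes. Values are read counts divided by a DESeq2 size factor, called normalized counts here, and each series of 3 values follows the clone order 28, 29, 36 for WT and 11, 13, 35 for R98S. The row for Rpl10, the targeted gene, stood at 2853, 3156 and 1900 in WT and 3028, 1883 and 2617 in R98S cells. The groups overlapped there, and since the hairpin was present in all clones and reads of the human transgene may align to the mouse gene, this row does not check the labels. Of the defining markers, the interleukin-3 receptor gene Csf2rb was abundant (between 46530 and 83429). Il3ra, which encodes another chain of that receptor, ranged from 646 to 919, and Cd79a from 996 to 1507. The B-lineage markers Pax5, Vpreb1, Igll1 and Rag1, by contrast, did not exceed 3.00 in any library. Some markers of other lineages were near 0 throughout (Cd3e, Cd4, Kit, Fcer1a, Elane, Csf1r and Dcn, none above 6.48), and others were detected, among them Klf1 at up to 610, Cpa3 at up to 389, Ms4a2 at up to 146 and Lck at up to 112. Adgre1, a macrophage gene, was at 9800, 8967 and 12409 in WT and 687, 2880 and 1832 in R98S and Ptprc, the leukocyte antigen CD45, at 10713, 14068 and 8869 in WT and 5657, 4391 and 3366 in R98S. Of 36 markers checked, 17 could be tested, of which 5 were higher and 4 lower in R98S cells. The other lower ones were the macrophage gene Lyz2 (means of 23.9 and 0.93 in WT and R98S) and the hemoglobin gene Hba-a1 (35.8 and 2.35). Higher were the T cell genes Cd3d (13.3 and 63.8) and Lck (42.6 and 94.3), the B cell receptor gene Cd79b (258 and 572), and the paralogs Csf2rb (51875 and 74703) and Csf2rb2 (41054 and 63212). The summed level of the macrophage list ran from 9234 to 12636 in WT and from 775 to 3131 in R98S clones. Most of that sum was Adgre1, and Cd68 of the same list was not called (means of 191 and 152, adjusted p = 0.45 by limma). The T cell list summed to between 49.1 and 67.7 in WT and between 149.9 and 178.3 in R98S clones. That sum was mostly Cd3d and Lck, as Cd3e and Cd4 were near 0. The part of these markers in the results below was not tested. In bulk RNA, fewer expressing cells and less RNA per cell cannot be told apart.

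Of the 55 genes, 52 reached a mean normalized count of 10 and were tested. Ldhb, Pdk2 and Aco1 did not, with at most 4 reads in any library. In R98S cells 12 of the 52 were lower and 5 were higher at an adjusted p under 0.1 by limma, adjusted over all 11550 genes tested. Across all tested genes 23.9% were called, 13.1% lower and 10.7% higher, against 32.7%, 23.1% and 9.6% of the tested members. The calls were distributed unevenly over the pathways. Glycolysis had 10 genes lower and 1 higher of 21 tested, the pentose phosphate pathway 1 lower and 1 higher of 7, and pyruvate oxidation and the TCA cycle 1 lower and 3 higher of 24. The median log2 fold change (R98S minus WT) was -0.38 in glycolysis, 0.07 in the pentose phosphate pathway and 0.03 in pyruvate oxidation and the TCA cycle, beside -0.01 over all tested genes. In 22 of the 52 the 3 R98S clones did not overlap the 3 WT clones, 13 of them on the lower side and 9 on the higher side. Over all tested genes 37.3% did not overlap, 19.2% on the lower side and 18.1% on the higher side.

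**Figure D1:**
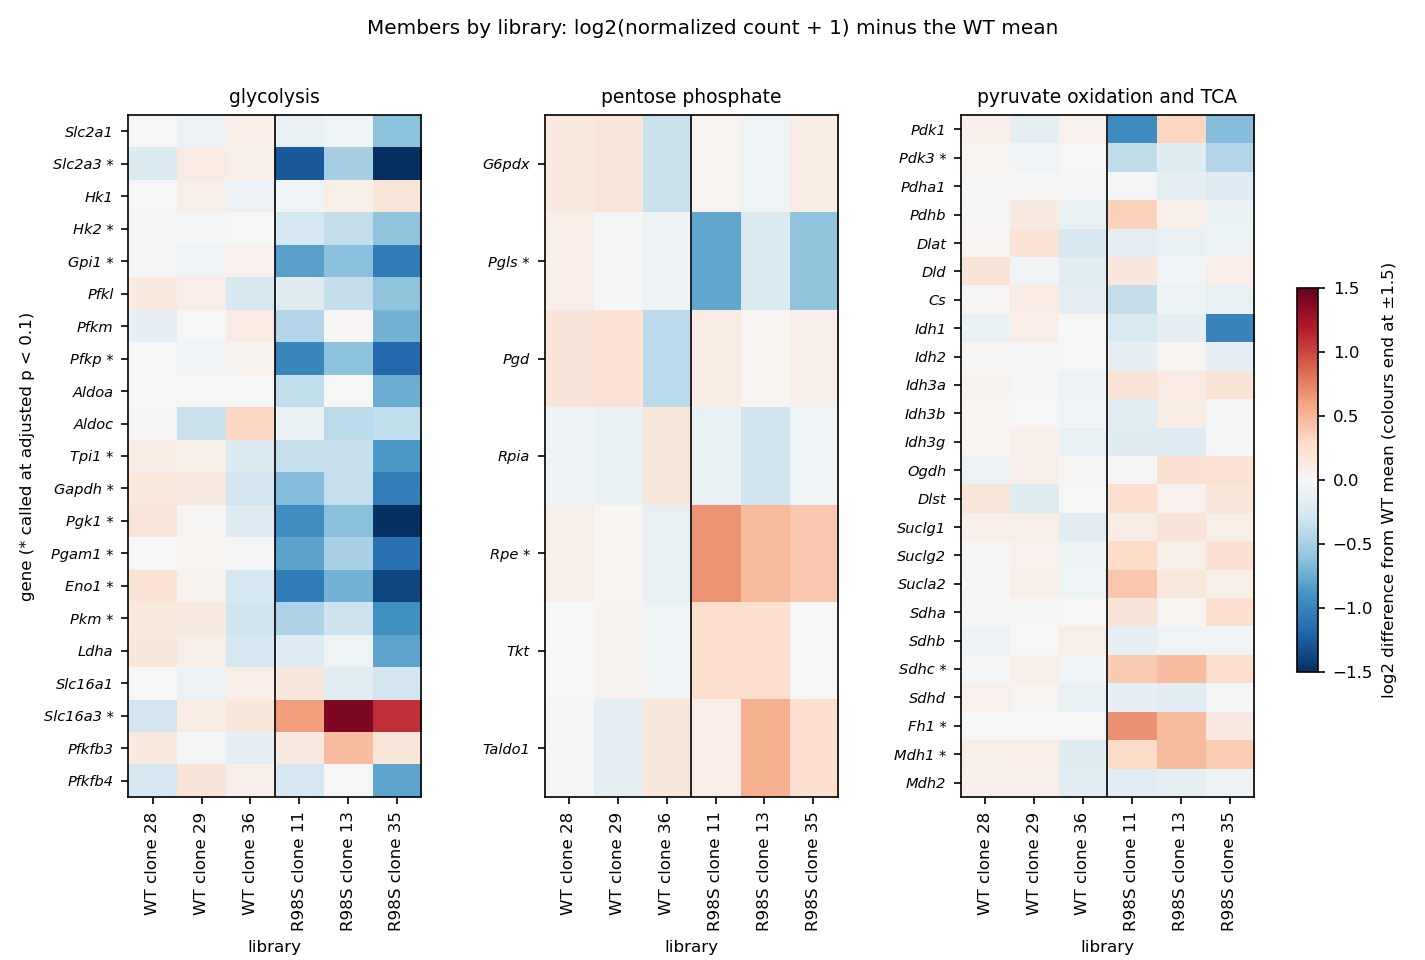
Each row is a gene and each column a library, and colour gives log2(normalized count + 1) minus the mean of the 3 WT clones, with colours ending at 1.5 in either direction and an asterisk on genes called at an adjusted p under 0.1. Blue runs through most glycolysis rows in the R98S columns and is deepest in clone 35, while the other panels hold pale rows with a few red ones such as Rpe, Fh1, Mdh1 and Sdhc.

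Glucose enters these cells through facilitative transporters. Slc2a3, which encodes the high-affinity transporter GLUT3, fell in R98S cells. Its normalized counts were 30486, 38377 and 37309 in WT and 14751, 25002 and 8406 in R98S (log2 fold change -1.27 ± 0.34, adjusted p = 0.042). All R98S clones were below all WT clones, with clone 13 closest to WT and clone 35 farthest. Slc2a1, encoding the widely expressed GLUT1, was at 3164, 2967 and 3379 in WT and 2927, 3031 and 2070 in R98S. Here the groups overlapped, only clone 35 stood below the rest, and the interval of the log2 fold change ran from -0.62 to 0.10 (adjusted p = 0.29). Per transcript length Slc2a3 was the more abundant of the pair in every library, and its share of their sum was between 88.8% and 91.4% in WT and between 77.0% and 87.2% in R98S clones.

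Hexokinases trap glucose by phosphorylating it. Hk2, the isozyme known to be induced in proliferating cells, had normalized counts of 8618, 8322 and 8571 in WT and 7065, 6641 and 5612 in R98S. It was lower in every R98S clone (log2 fold change -0.41 ± 0.11, adjusted p = 0.046). Hk1, the constitutive isozyme, was at 6466, 6922 and 6112 in WT and 6307, 6917 and 7369 in R98S. Those groups overlapped, and the difference had an interval from -0.16 to 0.32. Gpi1, which converts glucose 6-phosphate to fructose 6-phosphate just below the branch to the pentose phosphate pathway, fell to 56.7% of its WT mean, with 23357, 22793 and 24648 in WT and 13430, 15333 and 11379 in R98S (log2 fold change -0.83 ± 0.13, adjusted p = 0.0073). The R98S clones were spread more widely than the WT clones here (SD 1977 and 951), but the highest R98S clone was far below the lowest WT clone.

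Phosphofructokinase commits the sugar to glycolysis, and of its 3 isozymes only Pfkp passed. Pfkp, the platelet type, fell by 0.92 on the log2 scale, from 7645, 7499 and 7957 to 3900, 5032 and 3401 (SE 0.15, adjusted p = 0.0075). Clear separation was seen, as no R98S clone reached the lowest WT value. Pfkp shares 748 exonic bases with Pitrm1 on the opposite strand, and it is not given whether counting used the strand. Pitrm1 stood at 31.7% of the Pfkp count in WT and 78.1% in R98S cells, where the Pfkp count, the base of that share, was itself lower. Pfkl, the liver type, was at 9188, 8832 and 6984 in WT and 7308, 6463 and 5466 in R98S and did not pass (log2 fold change -0.38 ± 0.15, adjusted p = 0.12), and its highest R98S value exceeded that of WT clone 36. Pfkm, the muscle type, was the least abundant, with 945, 1035 and 1127 in WT and 763, 1046 and 630 in R98S (log2 fold change -0.38 ± 0.19, adjusted p = 0.21), and R98S clone 13 lay within the WT range. Without clone 13 the Pfkm difference was -0.58 with an adjusted p of 0.038, and without R98S clone 35 it was -0.21 with an adjusted p of 0.47. That of Pfkl was -0.50 without WT clone 36, with an adjusted p of 0.062, and -0.27 without R98S clone 35, with an adjusted p of 0.29. Pfkfb3 and Pfkfb4, which set the level of the allosteric activator fructose 2,6-bisphosphate, had log2 fold changes of 0.26 and -0.35 and neither passed (adjusted p = 0.23 and 0.32 by limma). At an unadjusted p under 0.05 the count was also 0, as it was at the adjusted threshold with edgeR and DESeq2.

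**Figure D2:**
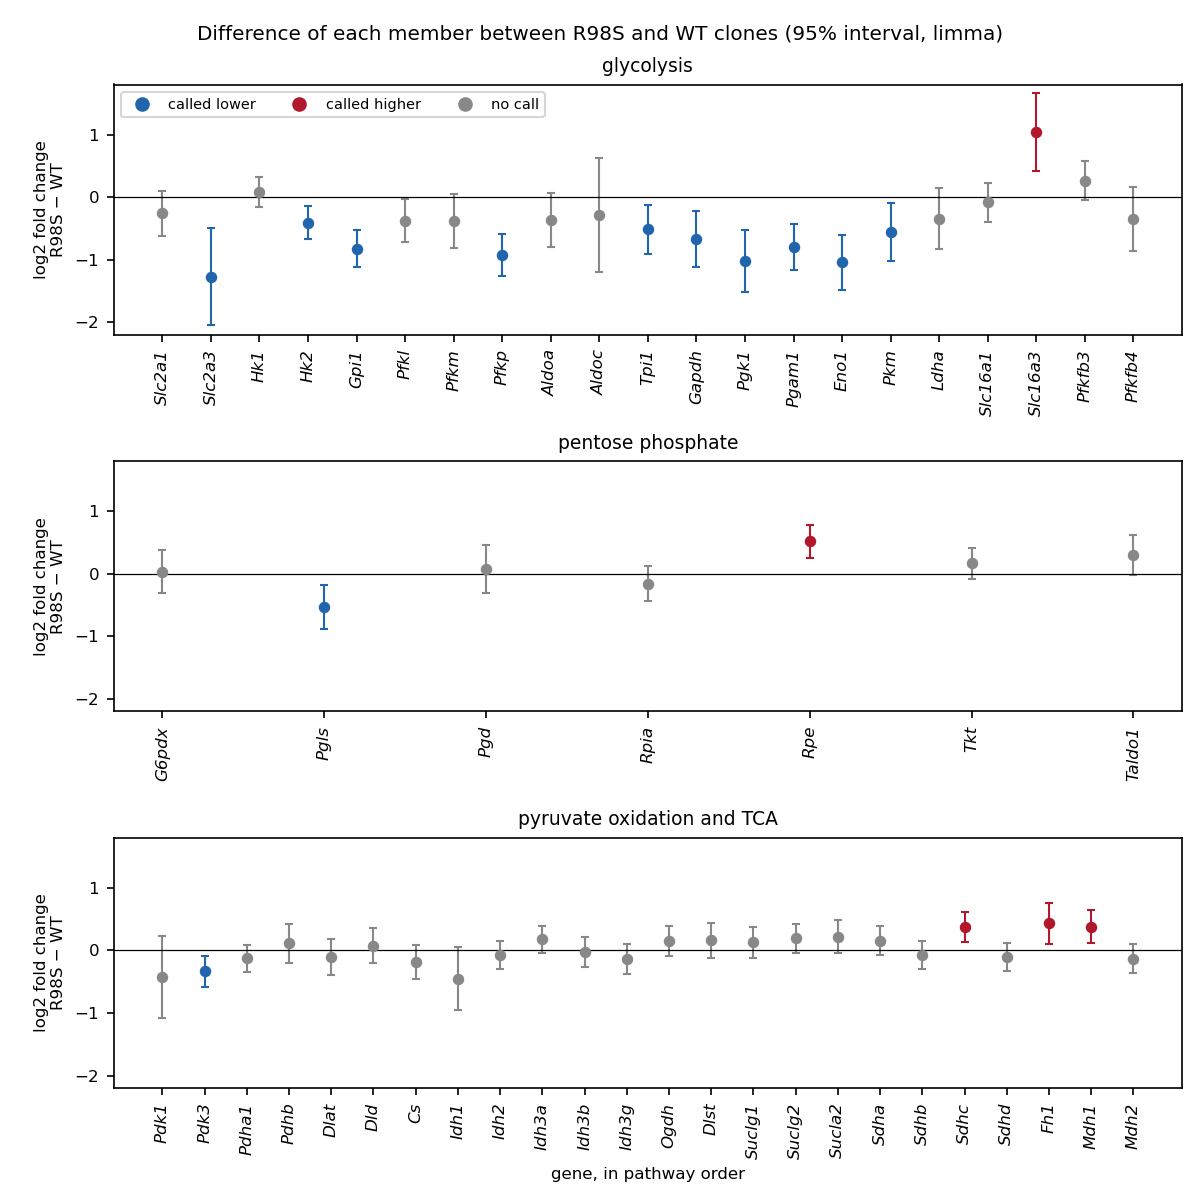
Points give the log2 fold change (R98S minus WT) of each tested gene with its 95% interval from limma, in pathway order from left to right, in blue for genes called lower, red for genes called higher and grey for the rest. In glycolysis the genes called lower lie between -1.27 (Slc2a3) and -0.41 (Hk2), and Slc16a3, at 1.04, is the only called gene above 0. The highest gene of the TCA panel is Fh1 at 0.43.

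Below the split of the hexose, Tpi1, Gapdh, Pgk1, Pgam1, Eno1 and Pkm all fell, while Aldoa, Aldoc and Ldha did not pass. Aldoa, the main aldolase, did not separate the groups, with 63089, 63859 and 63679 in WT and 49223, 63795 and 37909 in R98S (log2 fold change -0.37 ± 0.19, adjusted p = 0.22). Clone 13 was at the WT level and clones 11 and 35 were below it. Aldoc was close to the detection limit, between 8.17 and 14.0. Tpi1, which interconverts the triose phosphates, was at 35446, 34907 and 28435 in WT and 25840, 25843 and 17998 in R98S (log2 fold change -0.52 ± 0.17, adjusted p = 0.08). Every R98S clone was below every WT clone, by a small margin for WT clone 36. Gapdh, the NADH-producing dehydrogenase, was at 23789, 23400 and 17435 in WT and 13640, 16846 and 10439 in R98S (log2 fold change -0.67 ± 0.20, adjusted p = 0.054). Clone 13 came closest to WT clone 36 and the other R98S clones were lower. Gapdh has 78 near-identical annotated copies, of which 75 are pseudogenes, and reads that map equally well to several places are removed by a filter on mapping quality such as the authors used. The listed copies summed to 4.72% of the Gapdh count in WT and 4.63% in R98S cells.

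Among the 15 enzymes tested, Eno1 and Pgk1 had the largest falls. Pgk1, which makes the first ATP, fell to 50.4% of its WT mean, from 30326, 27285 and 23385 to 14049, 17392 and 9396 (log2 fold change -1.02 ± 0.22, adjusted p = 0.021). Pgam1, the mutase that follows, was at 23107, 23757 and 22894 in WT and 13334, 16656 and 10668 in R98S (log2 fold change -0.80 ± 0.16, adjusted p = 0.017). The WT clones differed little among themselves in Pgam1, and the R98S clones were all far lower. Eno1, which forms phosphoenolpyruvate, was at 37213, 33246 and 26869 in WT and 15522, 19639 and 12439 in R98S (log2 fold change -1.04 ± 0.19, adjusted p = 0.013), so that the R98S mean was 48.9% of the WT mean. Near-identical copies of Eno1 amounted to 12% of its count in each group. Pkm, encoding pyruvate kinase, was the most highly counted member, at 110755, 109486 and 80820 in WT and 72332, 79877 and 52395 in R98S (log2 fold change -0.56 ± 0.20, adjusted p = 0.099). The highest R98S clone was just under WT clone 36, and the call was kept under 7 of 17 alternatives.

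Ldha, the lactate-forming lactate dehydrogenase subunit, was at 62958, 59567 and 46539 in WT and 49065, 53325 and 32199 in R98S. The groups overlapped, with R98S clones 11 and 13 above WT clone 36, and the interval ran from -0.84 to 0.14 (adjusted p = 0.3). Ldhb had 1 read in R98S clone 35 and none in the other libraries. Slc16a1, the main lactate and pyruvate transporter MCT1, ranged from 5425 to 7420 and did not pass (log2 fold change -0.09 ± 0.13, adjusted p = 0.69). Slc16a3, encoding MCT4, which is suited to lactate export, was the only glycolysis member called higher. It rose from 43, 57 and 59 to 81.6, 140 and 114 (log2 fold change 1.04 ± 0.27, adjusted p = 0.039). All R98S clones were above all WT clones, yet the mRNA stayed rare. Per transcript length it made up between 0.666% and 0.932% of the sum of Slc16a3 and Slc16a1 in WT clones and between 1.11% and 2.36% in R98S clones.

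When each clone was left out in turn, Gpi1, Pfkp, Pgk1, Pgam1 and Eno1 stayed called every time. Slc2a3 lost its call without WT clone 29 (adjusted p = 0.11) or R98S clone 11 (0.12), Hk2 without WT clone 28 (0.15) or 29 (0.12), and Slc16a3 without WT clone 28 (0.14) or R98S clone 35 (0.10). Tpi1, Gapdh and Pkm each lost theirs without WT clone 28 or 29 or R98S clone 11 or 35, with adjusted p between 0.12 and 0.23 for Tpi1, between 0.13 and 0.17 for Gapdh and between 0.18 and 0.27 for Pkm. The direction of all 11 was kept. After subtraction of the shift that the 30 closest tested genes shared in each library, Hk2 (adjusted p = 0.11), Tpi1 (0.14) and Pkm (0.22) lost their calls. In the GENCODE M21 annotation of GRCm38, the 5 genes that stayed called lie on separate chromosomes: Gpi1 on chromosome 7 (34201330 to 34230336), Pfkp on chromosome 13 (6579768 to 6648777), Pgk1 on chromosome X (106187100 to 106203699), Pgam1 on chromosome 19 (41911923 to 41918660) and Eno1 on chromosome 4 (150236721 to 150248879). Of the other glycolysis genes called lower, Pkm lies on chromosome 9. Hk2 (from 82725025), Slc2a3 (from 122727809), Tpi1 (from 124810586) and Gapdh (from 125161715) all lie on chromosome 6. The neighbouring shift subtracted was -0.34 for Slc2a3, -0.059 for Hk2, 0.015 for Tpi1 and 0.054 for Gapdh.

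The promoters of the members were read for ACGTG and GCGTG, both forms of the core recognized by the hypoxia-inducible factor HIF1A with its partner ARNT, and for the E-box CACGTG, which contains ACGTG. Both strands were searched over 250 bases before and 50 after each start in RefSeq (GRCm38.p6), where 52 of the 55 genes had an entry. ACGTG was present in 51.5% of 33 glycolysis promoters, 12.5% of 8 pentose phosphate promoters and 37.5% of 32 promoters of pyruvate oxidation and the TCA cycle, beside 25.6% of the promoters of tested genes and 19.6% of all promoters. For GCGTG the shares were 57.6%, 75% and 56.2%, beside 50.7% and 32.4%. CACGTG was found in 12.1%, 0% and 12.5%, beside 9.8% and 7.2%. Promoters were counted, so a gene with several starts entered more than once. Ogdh alone supplied 6 of the 32 promoters of pyruvate oxidation and the TCA cycle. It held 6 of the 12 with ACGTG there and 3 of the 4 with CACGTG. Of the glycolysis genes called lower, 9 had an entry, and among their 12 promoters 41.7% held ACGTG, 50% GCGTG and 0% CACGTG. The stretches below, upstream of the start and written 5′ to 3′ along the gene, come from genes that fell and, for contrast, from Slc16a3 and Mdh1, which rose. Each shows ACGTG, or its reverse complement CACGT, in capitals. The Pgk1 and Slc16a3 stretches each hold a further copy, left in lower case.
Hk2 (chr6:82774472-82774536, minus strand): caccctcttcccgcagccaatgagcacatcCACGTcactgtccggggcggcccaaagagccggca
Pgk1 (chrX:106186920-106186984, plus strand): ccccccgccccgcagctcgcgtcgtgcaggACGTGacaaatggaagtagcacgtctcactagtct
Pgam1 (chr19:41911727-41911791, plus strand): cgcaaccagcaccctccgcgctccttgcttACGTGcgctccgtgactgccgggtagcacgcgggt
Pkm (chr9:59657122-59657186, plus strand): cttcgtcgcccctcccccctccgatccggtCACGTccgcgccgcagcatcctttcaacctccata
Pdk3 (chrX:93832169-93832233, minus strand): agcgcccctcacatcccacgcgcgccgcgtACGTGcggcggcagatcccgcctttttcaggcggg
Slc16a3 (chr11:120949010-120949066, plus strand): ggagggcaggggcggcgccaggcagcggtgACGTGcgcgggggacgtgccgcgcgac
Mdh1 (chr11:21572099-21572163, minus strand): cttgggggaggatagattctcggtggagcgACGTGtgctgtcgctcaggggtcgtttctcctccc
These stretches were picked because they hold the motif. Gpi1, Pfkp, Tpi1, Eno1 and Pgls, which fell, and Rpe and Fh1, which rose, had no ACGTG in the promoters searched. Whether any of these letters is bound in these cells was not measured.

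In the pentose phosphate pathway neither of the NADPH-producing enzymes passed. G6pdx, glucose 6-phosphate dehydrogenase, which controls entry and makes NADPH, was at 4269, 4382 and 3054 in WT and 3962, 3698 and 4171 in R98S. The lowest value was that of WT clone 36, the groups overlapped, and the interval ran from -0.31 to 0.38. Pgd, the second NADPH-producing enzyme, had the same arrangement, with 4007, 4085 and 2654 in WT and 3793, 3596 and 3697 in R98S (log2 fold change 0.07 ± 0.17, adjusted p = 0.8). For both genes the sign of the difference turned without WT clone 36, to -0.14 for G6pdx and -0.13 for Pgd, and neither was called. Pgls, the lactonase between them, fell from 3315, 3040 and 2944 to 1799, 2669 and 2041 (log2 fold change -0.53 ± 0.15, adjusted p = 0.051). No R98S clone reached a WT value, with clone 13 nearest. It shares 776 exonic bases with Fam129c on the same strand, a gene with a mean normalized count of 198. Its call was lost without WT clone 28 or 29 or R98S clone 11 or 35, with adjusted p between 0.12 and 0.16.

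In the non-oxidative branch, which exchanges sugars with glycolysis, Rpe (ribulose 5-phosphate epimerase) rose from 1664, 1598 and 1459 to 2512, 2183 and 2084 (log2 fold change 0.52 ± 0.12, adjusted p = 0.023). All R98S clones were above all WT clones, and the call held when any clone was left out. The 30 tested genes nearest to Rpe on chromosome 1 had a median shift of 0.28, and after their shift was removed in each library the difference was 0.25 with an adjusted p of 0.16. Rpe overlaps Kansl1l on the opposite strand over 558 exonic bases, and Kansl1l had a mean of 196. Tkt, transketolase, was at 8960, 9330 and 8654 in WT and 10750, 10571 and 9022 in R98S and Taldo1, transaldolase, at 4539, 4230 and 5202 in WT and 4970, 6730 and 5547 in R98S. Neither passed (adjusted p = 0.32 and 0.18), with intervals from -0.08 to 0.41 and from -0.02 to 0.62. Rpia, the ribose 5-phosphate isomerase, had a log2 fold change of -0.16 (adjusted p = 0.41).

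At the entry to mitochondrial oxidation, Pdk3, a pyruvate dehydrogenase kinase, fell from 2716, 2558 and 2621 to 2016, 2326 and 1940 (log2 fold change -0.33 ± 0.11, adjusted p = 0.072). The R98S clones were all lower, by a modest margin for clone 13. Pdk1, a related kinase and a well-known hypoxia target, was at 2212, 1923 and 2193 in WT and 1094, 2635 and 1346 in R98S (log2 fold change -0.42 ± 0.29, adjusted p = 0.35). Clone 13 had the highest value of all 6 libraries, whereas clones 11 and 35 were below every WT clone. Without clone 13 the difference was -0.79 with an adjusted p of 0.014, and without R98S clone 11 it was -0.16 with an adjusted p of 0.75. Pdk2 had at most 4 reads. The complex itself was not called: Pdha1, its catalytic alpha subunit, was at 4824, 4811 and 4664 in WT and 4672, 4294 and 4151 in R98S (log2 fold change -0.13 ± 0.10, adjusted p = 0.4), and Pdhb, Dlat and Dld had log2 fold changes from -0.11 to 0.11. None of its 4 genes passed by limma, 0 had an unadjusted p under 0.05, and edgeR and DESeq2 called 0.

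None of the 6 tested genes for citrate and isocitrate steps passed by limma, 0 had an unadjusted p under 0.05, and edgeR and DESeq2 called 0. Cs, citrate synthase, was at 4873, 5266 and 4353 in WT and 3754, 4551 and 4460 in R98S (adjusted p = 0.33). The groups overlapped. Idh1, the cytosolic NADP-dependent isocitrate dehydrogenase, was at 889, 1023 and 961 in WT and 812, 870 and 481 in R98S (log2 fold change -0.45 ± 0.22, adjusted p = 0.2). Its R98S clones were all below WT, but clone 35 accounted for most of the difference. Idh2, the mitochondrial NADP-dependent form, was at 2522, 2447 and 2489 in WT and 2277, 2543 and 2271 in R98S, with an interval from -0.30 to 0.15. Idh3a, a subunit of the NAD-dependent enzyme of the cycle, was at 5161, 5008 and 4722 in WT and 5734, 5382 and 5730 in R98S, all higher in R98S yet not called (log2 fold change 0.18 ± 0.09, adjusted p = 0.23). Idh3b and Idh3g had log2 fold changes of -0.02 and -0.14. Aco1, the cytosolic aconitase, was at 1 read or less in each library.

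From oxoglutarate to succinate, all 5 genes (Ogdh, Dlst, Suclg1, Suclg2 and Sucla2) had log2 fold changes above 0, between 0.13 and 0.22. None passed by limma, 0 had an unadjusted p under 0.05, and edgeR and DESeq2 called 0. Ogdh, the oxoglutarate dehydrogenase, was at 3561, 4007 and 3846 in WT and 3857, 4451 and 4413 in R98S (adjusted p = 0.35). Succinate dehydrogenase belongs both to the cycle and to the respiratory chain, and 1 of its 4 subunits passed. Sdhc, a membrane anchor, rose from 1737, 1869 and 1732 to 2344, 2453 and 2129 (log2 fold change 0.37 ± 0.10, adjusted p = 0.047), with no overlap. Sdha, the flavoprotein, was at 4837, 4949 and 4904 in WT and 5615, 4983 and 5822 in R98S (log2 fold change 0.16 ± 0.10, adjusted p = 0.31), and Sdhb, the iron-sulfur subunit, at 2009, 2111 and 2265 in WT and 1948, 2057 and 2070 in R98S (log2 fold change -0.07 ± 0.10, adjusted p = 0.66). Sdhd, the other anchor, had a log2 fold change of -0.10.

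Fh1, fumarase, rose from 2747, 2736 and 2722 to 4403, 3815 and 2992 (log2 fold change 0.43 ± 0.14, adjusted p = 0.08). The WT clones lay close together, and the R98S clones were all higher but spread widely. Mdh1, the cytosolic malate dehydrogenase of the malate-aspartate shuttle, rose from 4983, 5037 and 4133 to 5730, 6552 and 6105 (log2 fold change 0.38 ± 0.12, adjusted p = 0.061), again without overlap. Mdh2, the mitochondrial enzyme of the cycle, had a log2 fold change of -0.13 (adjusted p = 0.43). Pdk3 lost its call when any clone but R98S clone 13 was left out (adjusted p between 0.12 and 0.24) and with the neighbouring shift removed (0.17), Fh1 when any clone but R98S clone 35 was (0.13 to 0.21), Mdh1 in every case (0.10 to 0.13), and Sdhc without WT clone 28 (0.17) or 29 (0.10) or R98S clone 11 (0.12).

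The pathways were also compared by their summed level per transcript length. As a share of all length-scaled expression, the glycolysis mean over 3 clones was 2.14% (SD 0.161) for WT and 1.42% (SD 0.296) for R98S. By clone the shares were 2.27%, 2.19% and 1.96% in WT and 1.45%, 1.70% and 1.11% in R98S cells, with no overlap. The pentose phosphate pathway took 0.144% ± 0.003 and 0.145% ± 0.009, and pyruvate oxidation with the TCA cycle 0.382% ± 0.012 and 0.381% ± 0.008. In those pathways the groups overlapped. The 5th and 95th percentiles of the log2 fold change over all tested genes were -0.99 and 0.82, so the changes of Slc2a3, Pgk1, Eno1 and Slc16a3 lay outside that range and those of all tested pentose phosphate and TCA members inside it.

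**Figure D3:**
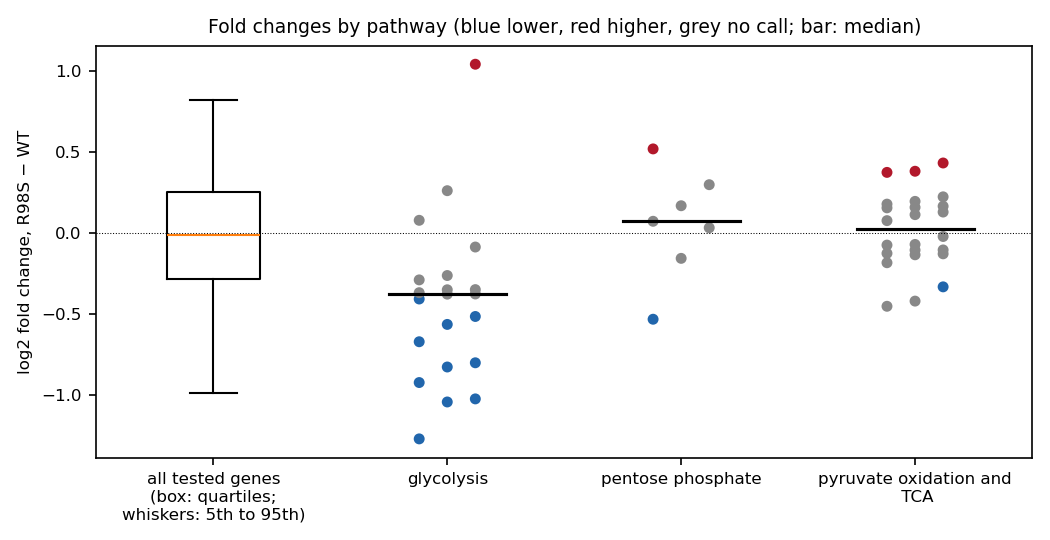
The log2 fold change (R98S minus WT) is shown for each tested gene of the 3 pathways, with a bar at the median, beside a box for all 11550 tested genes (quartiles, with whiskers from the 5th to the 95th percentile). The glycolysis median of -0.38 lies below the lower quartile of all tested genes (-0.29), and the medians of the other pathways lie near 0.

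**Figure D4:**
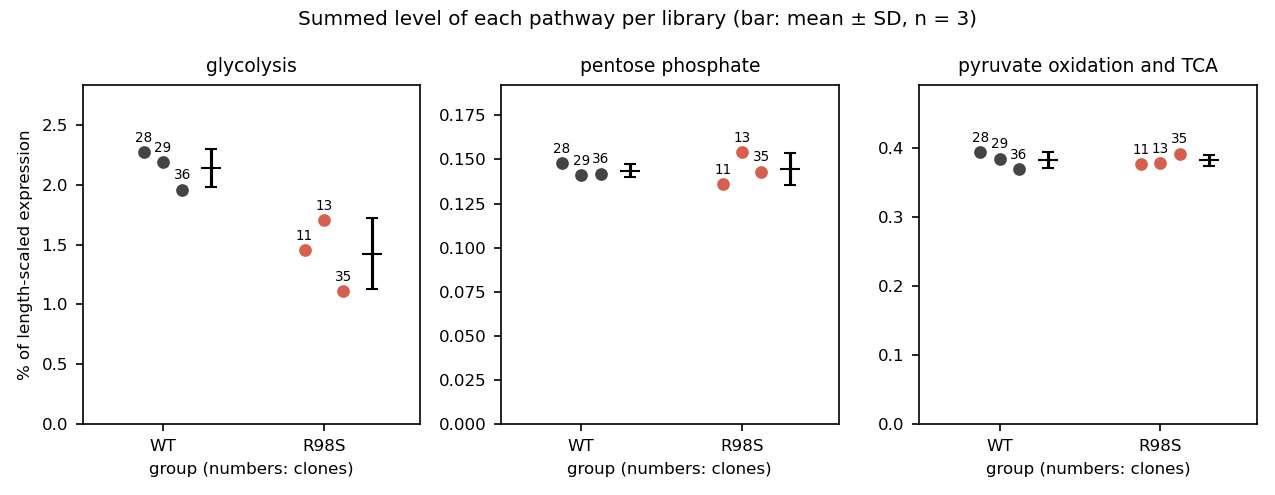
Summed level of each pathway in each library, as a percentage of length-scaled expression, with clone numbers beside the points and the mean ± SD of 3 clones as a bar. Glycolysis falls from a mean of 2.14% to 1.42%, with clone 35 lowest, while the other panels show overlapping groups.

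The R98S clones were not alike. Relative to the WT mean, the median over tested glycolysis genes was -0.34 in clone 11, -0.34 in clone 13 and -0.80 in clone 35. Among the 10 glycolysis genes called lower, clone 35 had the lowest R98S value in 10 and clone 13 the highest in 9. WT clone 36 had the lowest WT value in 6 of the 10. Clone 36 was also the lowest WT clone for 16 of the 24 tested genes of pyruvate oxidation and the TCA cycle. Lowest and highest clones were not counted over all tested genes, so these counts cannot be read as particular to the pathways.

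Isozymes of the same step were then compared as log2 ratios within each library. Of 13 pairs, 11 had both genes tested and 5 did not overlap between the groups, beside 37.3% of single genes tested. With 3 clones against 3, the two-sided exact permutation test cannot go below p = 0.1, so no pair could pass 0.05. Any pair without overlap takes that smallest value, as all 5 did (0.22 after Benjamini-Hochberg adjustment over the 11 pairs). The test therefore adds nothing to the count of pairs without overlap. The log2 ratio of Hk2 to Hk1 was 0.39 ± 0.11 in WT and -0.10 ± 0.28 in R98S cells (SD), a difference of -0.49. Pfkp to Pfkl differed by -0.55, Slc2a3 to Slc2a1 by -1.01 and Mdh2 to Mdh1 by -0.51, and Slc16a3 to Slc16a1 by 1.13. The Pfkm to Pfkl and Suclg2 to Sucla2 ratios differed by 0.00 and -0.03, within the spread between clones. Per transcript length, Hk2 made up 47.2% ± 1.86 of hexokinase mRNA in WT and 39.4% ± 4.58 in R98S cells, and Pfkp 41.9% ± 3.5 and 33.0% ± 3.48 of phosphofructokinase mRNA.

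**Figure D5:**
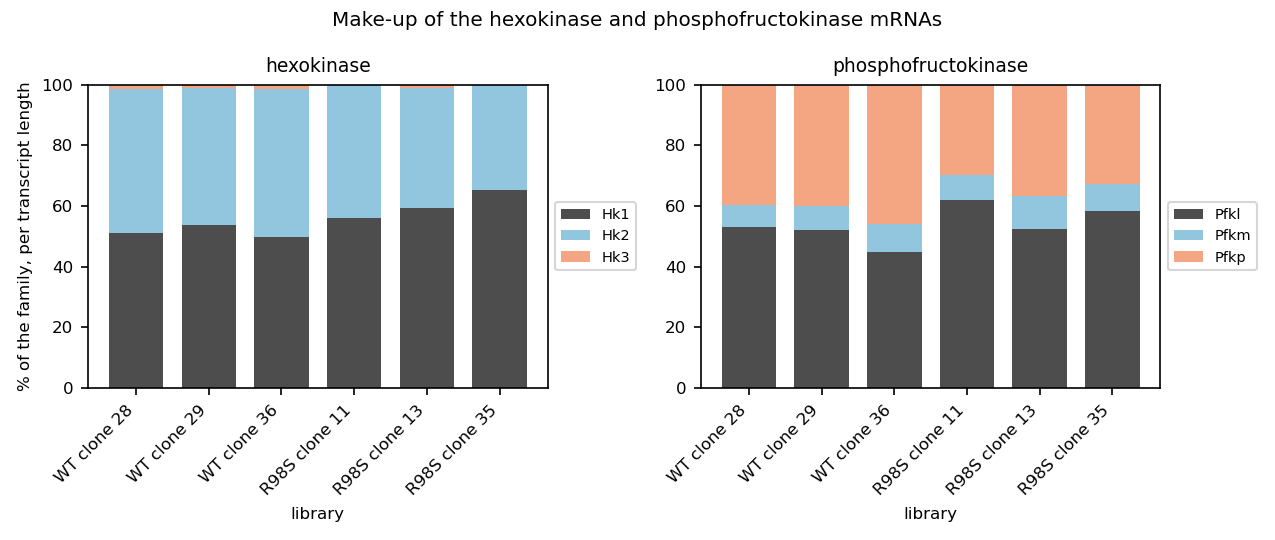
Stacked bars give the share of each isozyme in the summed hexokinase (left) and phosphofructokinase (right) mRNA of each library, per transcript length. The Hk2 part shrinks from 45.2% or more in WT clones to 43.8% or less in R98S clones, and the Pfkp part from 39.8% or more to 36.7% or less.

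Other genes of central carbon metabolism, 62 in all and 43 of them tested, had 6 lower and 3 higher (median of all 43, 0.03 on the log2 scale). That is 14% lower and 7% higher, beside 13.1% and 10.7% of all genes tested. Near glycolysis, 4 of 15 tested were lower and 1 higher. The lower ones included Hk3, a further hexokinase (log2 fold change -2.08 ± 0.67, adjusted p = 0.072), and Slc2a6, a lysosomal member of the glucose transporter family (log2 fold change -1.10 ± 0.34, adjusted p = 0.065). Also lower were Pgm2, of the phosphoglucomutase family (log2 fold change -0.74 ± 0.22, adjusted p = 0.056), and Tigar, a fructose 2,6-bisphosphatase (log2 fold change -0.69 ± 0.20, adjusted p = 0.056). Which gene of that family the symbol Pgm2 stood for in the counting was not checked. Hk3 had 153, 115 and 135 in WT and 18.8, 108 and 13.9 in R98S, so R98S clone 13 was close to WT while clones 11 and 35 were almost without it. Slc2a9, a urate transporter of the same family as the glucose transporters, rose from 276, 297 and 356 to 462, 593 and 482 (log2 fold change 0.72 ± 0.17, adjusted p = 0.026). Around the pentose phosphate pathway 0 of 5 tested genes passed by limma, 0 had an unadjusted p under 0.05, and edgeR and DESeq2 called 0. Around pyruvate and the TCA cycle, 2 of 23 tested were higher, namely Mpc2, a subunit of the mitochondrial pyruvate carrier (log2 fold change 0.63 ± 0.17, adjusted p = 0.042), and Lipt1, a lipoyltransferase (log2 fold change 0.81 ± 0.24, adjusted p = 0.055). Lower were Me2, the mitochondrial malic enzyme (log2 fold change -0.94 ± 0.12, adjusted p = 0.0039), and Got2, the mitochondrial aspartate aminotransferase, by 0.34 on the log2 scale.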

How the data were processed

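Polyadenylated RNA of 6 clones was sequenced from stranded libraries. The authors discarded rRNA and tRNA reads (Bowtie2), aligned the rest to mm10 (TopHat), filtered on mapping quality and counted exonic reads; annotation and strand setting are not given in the sources used here. The deposited signal is the count of each gene after division by a DESeq2 size factor. In every library 100% of values were whole multiples of 1 read (tolerance 0.01), and 3 reads equal 2.78 to 3.22 units. Replicates differed beyond counting error (chi-square per df 18.7 to 65.2), so all were kept.

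Groups were compared with limma 3.58.1 (R 4.3.3) on log2(value + 1) with an intensity trend, for genes with a mean of at least 10, with Benjamini-Hochberg adjustment over 11550 genes and a threshold of 0.1. Fold changes are on that scale, ± SE. In simulated data over 11550 genes, 99% of 2-fold and 65.3% of 1.41-fold changes were recovered and 14.2% of calls were false. That simulation changed 200 genes and gave every gene the same dispersion. The spread between the real clones differs by gene, so these rates need not hold for the data. Lengths are those of principal transcripts (GENCODE M21). Copies were found with blastn 2.17.0 (95% identity over 200 bases). Alternatives were edgeR 4.0.16 and DESeq2 1.42.0 on recovered reads, other pseudocounts, filters and scalings, and each clone left out. Subtracting the median shift of the 30 closest tested genes, and pathway medians under each alternative, were added after seeing the data. Named were all members called, 26 controlling steps and isozymes whatever their values, and other listed genes called with a log2 fold change of at least 0.58 in size. Genes named outside this rule, such as Got2, Hif1a, P4ha1 and Mif, were chosen after their values were seen. Older symbols were matched for 4 genes. Members and lists were chosen with earlier results of these data known.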

Additional observations from a re-analysis of the deposited data

How the results depend on the processing

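The median of the glycolysis genes stayed below 0 under all 16 alternatives, from -0.56 to -0.27. Leaving out 1 clone at a time gave 1327 to 3219 calls over all genes, 1 to 3 members higher, 5 to 15 lower, and 6 to 13 glycolysis, 1 to 2 pentose phosphate and 0 to 3 pyruvate oxidation and TCA genes called, with the pentose phosphate median between -0.07 and 0.18. Without the filter on low values, and without the intensity trend, 3 members were higher and 1 pyruvate oxidation or TCA gene was called. At an adjusted p of 0.05 there were 1722 calls over all genes (14.9%), 3 members higher, 7 lower, 1 pentose phosphate and 1 pyruvate oxidation or TCA gene. With the shift of neighbouring genes removed, 1 pentose phosphate and 8 pyruvate oxidation or TCA genes were called and the pentose phosphate median was -0.015. There 25% of all genes were called. Slc2a1 (-0.62, adjusted p = 0.069), Aldoa (-0.62, 0.099), Pdk1 (-0.64, 0.095), Idh1 (-0.76, 0.025), Idh2 (-0.37, 0.047), Idh3a (0.23, 0.087) and Suclg2 (0.29, 0.058) gained a call there, and Hk2, Tpi1, Pkm, Rpe and Pdk3 lost theirs. The cause was not tested. The sign turned for 5 genes, none of them called, namely G6pdx (-0.135 without WT clone 36 and -0.009 without R98S clone 35, within a range of -0.135 to 0.125), Pgd (-0.131 without WT clone 36), and with the neighbouring shift removed Tkt (-0.015), Taldo1 (-0.042) and Pdha1 (0.01). Of 595 comparisons over 35 named genes, 516 kept their direction and side of the threshold, 64 lost a call, 9 gained one and 6 turned. No paired analysis was possible because no clone number occurs in both groups. Depth was similar in all libraries, and for genes well above the floor the spread between clones, with 3 per group, limits precision.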

Other observations

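A list of 23 genes around HIF1A, the oxygen-regulated factor known to act on many glycolytic genes, was read beside the pathways, chosen with earlier results of these data known. Of 19 tested, 6 were lower and 1 higher in R98S cells, and the median difference was -0.38 on the log2 scale. These were 31.6% and 5.3%, beside 13.1% and 10.7% of all genes tested. Hif1a itself was at 4534, 3760 and 3586 in WT and 3320, 3140 and 3544 in R98S and did not pass (log2 fold change -0.24 ± 0.12, adjusted p = 0.2). Its partner Arnt fell from 2020, 2324 and 2006 to 1504, 1427 and 1190 (log2 fold change -0.63 ± 0.13, adjusted p = 0.018), with all R98S clones below all WT clones. Egln1, the prolyl hydroxylase that marks HIF1A for degradation, was at 4842, 4501 and 5482 in WT and 2818, 3678 and 2387 in R98S (log2 fold change -0.76 ± 0.17, adjusted p = 0.022).

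Among targets outside glycolysis, Ndrg1 showed the widest gap, with 5265, 9017 and 6228 in WT and 996, 426 and 433 in R98S (log2 fold change -3.55 ± 0.34, adjusted p = 0.00077). Higd1a, a mitochondrial protein, fell from 3523, 3337 and 3214 to 2321, 2571 and 1627 (log2 fold change -0.65 ± 0.17, adjusted p = 0.037). P4ha1 and Mif were also lower, by 0.36 and 0.47 on the log2 scale. Car9, a carbonic anhydrase and a classical target, went the other way, from 138, 124 and 170 to 192, 241 and 213 (log2 fold change 0.58 ± 0.19, adjusted p = 0.079). Vegfa, another target, had a log2 fold change of -0.10 (adjusted p = 0.71), and Bnip3 and Ero1l, at -0.62 and -0.70, did not pass (adjusted p = 0.19 and 0.23). Vegfa, Bnip3 and Ero1l were chosen for mention after their values were seen.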
